A study of Mus musculus with 16 samples.

Results

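Matrix metalloproteinases (MMPs), their tissue inhibitors (TIMPs), lysyl oxidases (LOX) and the ADAMTS proteases were examined in mRNA sequencing of mouse liver and liver tumours. The members were the rows whose gene symbol begins Mmp and a digit, Timp1 to Timp4, Lox, Loxl1 to Loxl4 or Adamts, with a normalised read count of at least 10 in at least 2 of the 16 libraries. Of 47069 genes in the table, 56 carried such a symbol and 42 passed this level: 16 of 23 MMPs, 3 of 4 TIMPs, all 5 lysyl oxidases, 13 of 19 ADAMTS proteases and all 5 ADAMTS-like genes. Every library came from a mouse treated with diethylnitrosamine (DEN), a carcinogen that hepatocytes activate and that induces hepatocellular carcinoma, so the control diet groups carry that treatment too. Mice ate a high-fructose diet or a cornstarch diet, cornstarch being a polymer of glucose. The 6 groups were liver tissue at 5 months (2 fructose, 3 cornstarch libraries), liver tissue at 9 months (3 and 3) and tumour tissue at 9 months (3 and 2). Genotype, strain and sex of the mice, and whether libraries came from separate mice, are not given in the labels, so the p-values reflect no more than the spread among these libraries, part of which may be technical.

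The extracellular matrix of the liver is a thin meshwork of collagens, proteoglycans and glycoproteins along the sinusoids, and scar forms when collagen is deposited faster than it is removed. MMPs are zinc proteases that cut collagens and other matrix proteins; some are secreted as inactive precursors and others are anchored in the cell membrane, and TIMPs block them by binding the active site. Lysyl oxidases oxidise lysines of collagen and elastin so that fibres become cross-linked, and ADAMTS proteases either trim procollagen or cut proteoglycans such as versican and aggrecan. ADAMTS-like proteins share the accessory domains of ADAMTS but lack the protease domain, and several bind fibrillin microfibrils. In the liver, hepatic stellate cells, macrophages and infiltrating neutrophils are well-known sources of these proteins.

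Libraries held 11232461 (9-month cornstarch liver, replicate 2) to 38377674 reads (9-month fructose liver, replicate 3) over the listed genes. All 8 hepatocyte markers examined reached a value of 10 in every group. Replicate 1 of each diet at 5 months was XX by Xist and the other libraries were not, so each group of 5 months came from more than 1 mouse, and results in liver were also computed without these 2 libraries. Log2 values of members varied more between replicates than those of genes in general. The median standard deviation in the 9-month fructose livers was 0.478 for members against 0.219 for 14836 genes, and in the fructose tumours 0.694 against 0.316. Members and genes were not matched for level, so the part of low counts in this spread was not tested.

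Per kilobase of exon and averaged over the 16 libraries, the highest member was Mmp19 (297 normalised counts per kb), followed by the membrane-anchored Mmp14 (155) and Mmp15 (139), and by the inhibitors Timp3 (118) and Timp2 (60.7). Mmp8 reached 256 normalised counts per kb in the 5-month fructose livers and 1.10 in the 5-month cornstarch livers. Mmp19 itself moved little in liver, from 967 normalised counts at its lowest (9-month cornstarch) to 1296 at its highest (9-month fructose), and stood at 636 to 1109 in tumours. The lowest member was Adamtsl1 (0.684 per kb). The 14 genes under the level filter were Adamts8, Adamts16, Adamts17, Adamts18, Adamts19, Adamts20, Mmp1a, Mmp1b, Mmp3, Mmp10, Mmp16, Mmp20, Mmp21 and Timp4, and 6 of them (Adamts18, Adamts19, Adamts20, Mmp1a, Mmp1b, Mmp20) had no read in any library. Just outside the filter, Adamts17 reached 18.3 and Mmp3 11.2 in 1 library each. Just inside it, Adamts3 had 20.2 and 13.1 in its 2 highest libraries, Adamtsl3 17.4 and 10.1, and Mmp25 67.1 and 66.3.

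**Figure D1:**
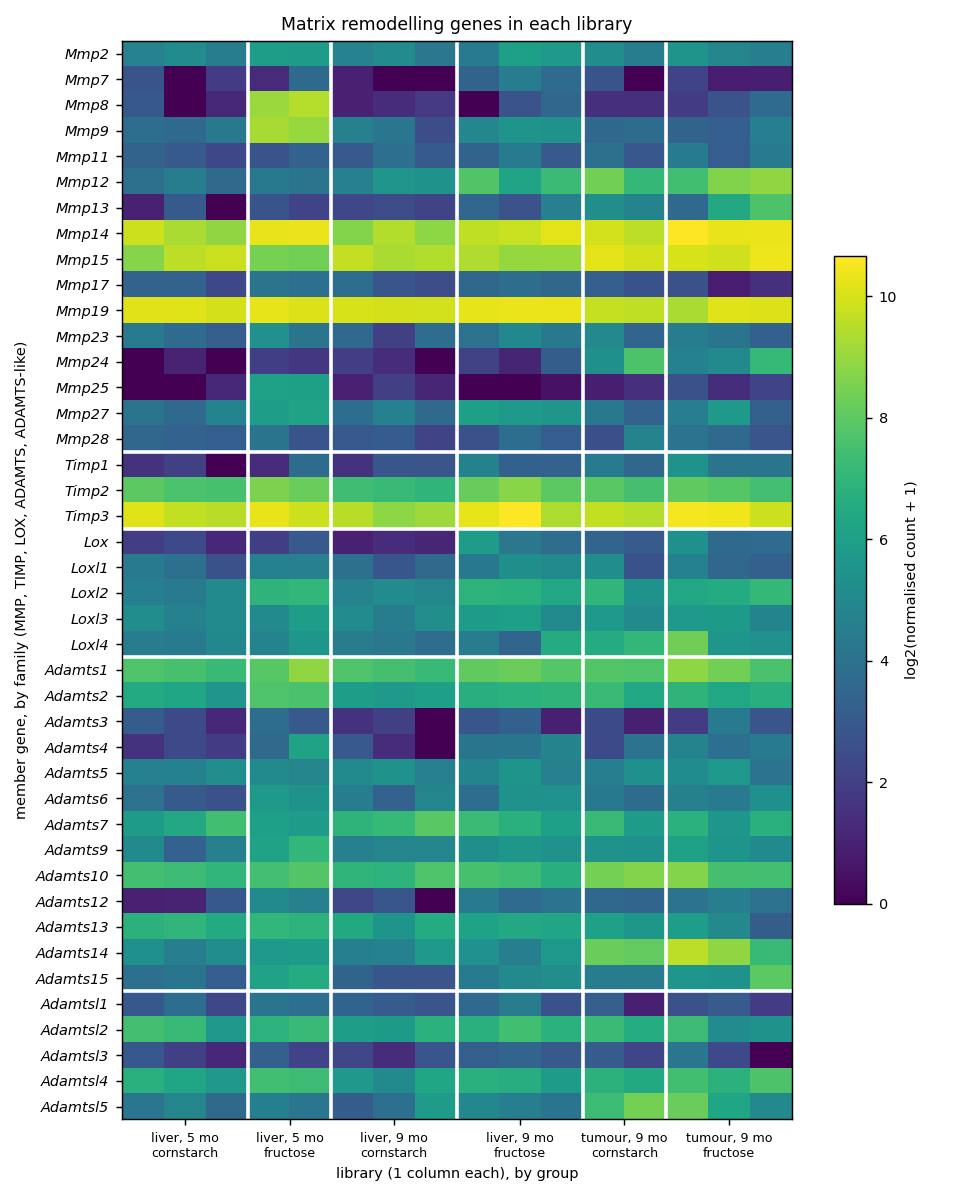
Heat map of log2(normalised count + 1) for the 42 members (rows, by family) in the 16 libraries (columns, by group). Mmp14, Mmp15, Mmp19, Timp2 and Timp3 are high in every library, whereas Mmp8, Mmp9 and Mmp25 are high in the 2 fructose livers of 5 months and Mmp24 in the tumours.

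10 MMP genes lie next to one another on chromosome 9, in 427 kb of GRCm38 (7272514 to 7699585), in the order Mmp13, Mmp12, Mmp1b, Mmp3, Mmp1a, Mmp10, Mmp8, Mmp27, Mmp20 and Mmp7, and 5 of them are members: Mmp13 (collagenase 3), Mmp12 (macrophage elastase), Mmp8 (neutrophil collagenase), Mmp27 and Mmp7 (matrilysin). The stretches before the start sites of 4 of them are shown because these genes carry results below: Mmp8 at 5 months, Mmp12 and Mmp7 with fructose, and Mmp12 and Mmp13 in tumours. The windows are the 250 bases before the RefSeq start site in GRCm38.p6, on the plus strand of chromosome 9, 5′ to 3′, with capitals marking the AP-1 motif (TGAGTCA, or TGACTCA on the other strand) and the TATA motif (TATAAA, either strand). They are Mmp13 (chr9:7272264-7272513), the second listed start of Mmp12 (chr9:7347124-7347373), Mmp7 (chr9:7691840-7692089) and Mmp8 (chr9:7558179-7558428).
Mmp13: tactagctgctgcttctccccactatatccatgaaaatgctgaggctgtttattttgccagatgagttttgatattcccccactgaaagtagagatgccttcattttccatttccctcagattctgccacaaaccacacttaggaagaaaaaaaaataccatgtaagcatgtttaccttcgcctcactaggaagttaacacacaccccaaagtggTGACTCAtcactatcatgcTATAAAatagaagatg
Mmp12: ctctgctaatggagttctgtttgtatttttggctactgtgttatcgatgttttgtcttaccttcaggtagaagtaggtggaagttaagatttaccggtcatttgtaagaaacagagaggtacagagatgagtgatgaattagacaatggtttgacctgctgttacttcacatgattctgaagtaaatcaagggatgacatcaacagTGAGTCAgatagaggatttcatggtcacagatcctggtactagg
Mmp7: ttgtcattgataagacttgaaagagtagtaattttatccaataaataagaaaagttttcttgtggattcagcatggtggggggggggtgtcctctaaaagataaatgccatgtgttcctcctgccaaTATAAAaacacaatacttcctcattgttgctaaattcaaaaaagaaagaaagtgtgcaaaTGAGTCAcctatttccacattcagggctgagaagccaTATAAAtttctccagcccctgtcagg
Mmp8: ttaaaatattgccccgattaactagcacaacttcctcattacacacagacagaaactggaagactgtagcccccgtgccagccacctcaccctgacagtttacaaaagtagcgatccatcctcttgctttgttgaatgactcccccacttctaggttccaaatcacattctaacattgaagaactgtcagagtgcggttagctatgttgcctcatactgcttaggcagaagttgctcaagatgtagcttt
An AP-1 motif stands 35 bases before the start of Mmp13, 44 before that of Mmp12 and 63 before that of Mmp7, and none was matched in the Mmp8 window. The other listed start of Mmp12 (chr9:7344147-7344396), which lies at the annotated gene start, the other listed start of Mmp7 (chr9:7692091-7692340) and that of Mmp27 (chr9:7571146-7571395) had no AP-1 match either. The RefSeq table used here gave 30 start sites for 27 of the 42 members, and the 3 sites above (10%) were those with an AP-1 motif, against 4.46% of all 32851 promoters. A TATA motif was matched in 4 of the 30 (13.3%), against 12.4% of all promoters. A match describes the letters only.

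In livers at 5 months the fructose diet went with far more of the MMPs that granulocytes carry, with more of 6 ADAMTS proteases and the cross-linker Loxl2, and with no called change of a TIMP. 13 of the 39 members tested passed the threshold (limma adjusted p under 0.05), 12 higher and 1 lower. This is 33.3% of the members, against 14.8% of all 14317 genes tested. The background was 10.3% for higher and 4.48% for lower genes. By family, 5 MMPs were higher and 1 lower of 15, 1 lysyl oxidase was higher of 5, 6 ADAMTS proteases of 12, 0 TIMPs of 3 and 0 ADAMTS-like genes of 4. The median log2 difference of the members was 0.95, against -0.01 for all genes, and 37 of the 39 were above 0. Of the 13, Mmp8, Mmp25, Adamts4 and Adamts12 reached a value of 10 in fructose livers alone, so they entered the fit through the side where they are high and had to differ. The other 9 calls are of 31 members without that limit.

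Mmp8 (ENSMUSG00000005800, chromosome 9, 7558456 to 7568485), a collagenase stored in neutrophil granules whose upstream window is printed above, stood at 532 and 708 normalised counts in the fructose livers of 5 months and at 6.68, 0 and 1.33 in the cornstarch livers. The 2 fructose libraries lie far above every other library of the study, the highest of which held 12.2 (a fructose tumour). The difference was 7.88 on the log2 scale (SE 1.02, limma adjusted p = 0.00105). Mmp9 (ENSMUSG00000017737, chromosome 2, 164940780 to 164955850), gelatinase B, which neutrophil granules also hold, had 614 and 519.7 against 13.4, 11.3 and 18.6. Its groups did not overlap, and the log2 difference was 5.22 (SE 0.52, limma adjusted p = 0.000332), or 37.4-fold.

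Mmp25 (ENSMUSG00000023903, chromosome 17, 23628311 to 23645277), leukolysin, a membrane-anchored MMP of leukocytes, had 67.1 and 66.3 normalised counts with fructose and 0, 0 and 1.33 with cornstarch. The recovered reads were 104 against 1, a ratio of normalised counts of 185 with a 95% counting interval of 32.4 to 7364, and the fit gave an adjusted p of 0.000623 (limma). Mmp25 passed the level filter through this 1 group. The summed level of 10 markers of neutrophils and their precursors (S100a8, S100a9, Ngp, Ltf, Camp, Mpo, Elane, Prtn3, Retnlg, Cxcr2) was 23422 to 25759 in the fructose livers of 5 months and 15.4 to 112 in the cornstarch livers of that age, and all 10 reached a value of 10 in the fructose group against 4 in the cornstarch group. 5 monocyte markers summed to 10406 to 10951 against 1176 to 2573. The part of these cells in the results was not tested, and in bulk tissue more cells of a type and more RNA per cell cannot be told apart.

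**Figure D2:**
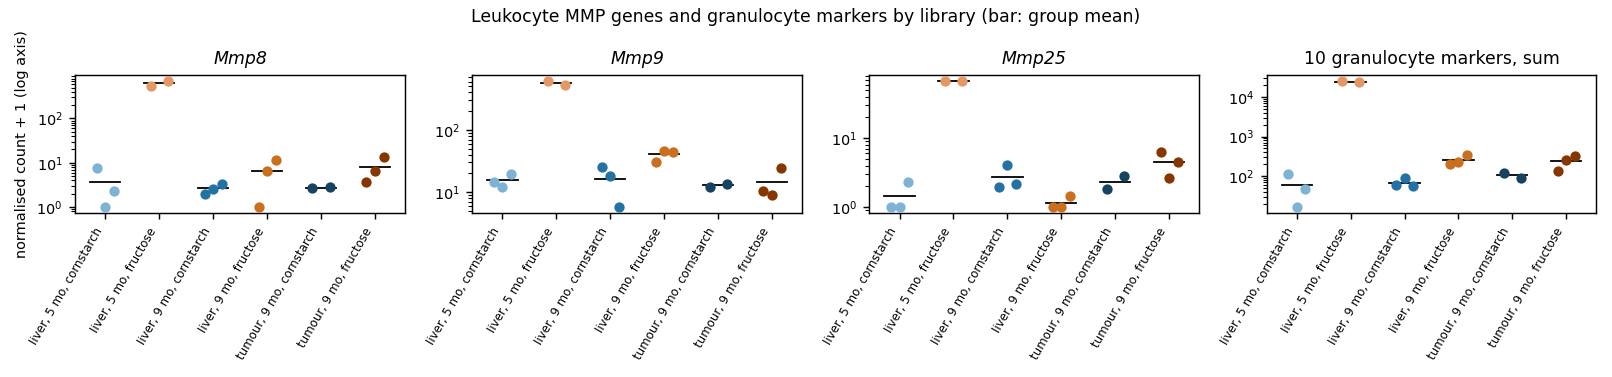
Mmp8, Mmp9, Mmp25 and the sum of 10 granulocyte markers in each library (points; normalised count + 1 on a log axis) by group, with bars at the group means. In all 4 panels the 2 fructose livers of 5 months stand above the other 14 libraries.

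The membrane and stromal MMPs showed smaller changes at 5 months. Mmp14 (MT1-MMP), which activates pro-Mmp2 at the cell surface together with Timp2, had 1246 and 1294 normalised counts with fructose and 903, 632 and 465 with cornstarch. The fructose values were higher in both libraries, by 0.98 on the log2 scale (SE 0.29, limma adjusted p = 0.0472). Mmp15 (MT2-MMP) was the 1 member called lower, with 350.0 and 329 against 418, 779 and 887, a log2 difference of -0.96 (SE 0.28, limma adjusted p = 0.0418). Mmp27 had 61.3 and 68.5 against 16.2, 11.3 and 26.6, higher by 1.87 (SE 0.39, limma adjusted p = 0.0106). Mmp2 (gelatinase A) stood at 61.3 and 58.3 against 25.8, 33.9 and 21.3. The values did not overlap, but its log2 difference of 1.14 (SE 0.46) gave a limma adjusted p of 0.122.

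Among the cross-linking enzymes Loxl2 (ENSMUSG00000034205, chromosome 14, 69609068 to 69695834), which acts on collagen type IV as well as on fibrillar collagens, had 121 and 130.2 normalised counts with fructose and 22.9, 20.5 and 33.3 with cornstarch. All fructose values exceeded all cornstarch values by a wide margin, and the log2 difference was 2.28 (SE 0.27, limma adjusted p = 0.000784), or 4.86-fold. Lox was near the detection floor at this age in both diets, with 2.92 and 6.85 against 2.86, 4.11 and 1.33 (log2 difference 0.63, SE 0.67, limma adjusted p = 0.579).

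No inhibitor passed at 5 months. Timp2 had 369 and 294 against 246, 198 and 189 normalised counts, without overlap (0.65 on the log2 scale, SE 0.24, limma adjusted p = 0.0955). Timp3, which is held in the matrix and also inhibits ADAM and ADAMTS proteases, had 1246 and 902 against 1127, 816 and 724, which overlap (0.28, SE 0.35, limma adjusted p = 0.646). Timp1, an inhibitor that activated stellate cells secrete, was low throughout, with 1.46 and 12.6 against 1.91, 3.08 and 0 (1.34, SE 0.88, limma adjusted p = 0.345).

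6 ADAMTS proteases rose at 5 months. Of those that cut proteoglycans, Adamts15 (ENSMUSG00000033453, chromosome 9, 30899155 to 30922452) had 70.0 and 92.5 normalised counts against 14.3, 16.4 and 7.99 (2.61 on the log2 scale, SE 0.40, limma adjusted p = 0.00234). Adamts9 had 68.5 and 131 against 32.5, 9.24 and 24.0 (2.23, SE 0.45, limma adjusted p = 0.00934). Adamts4 had 11.7 and 69.7 against 1.91, 4.11 and 2.66 (2.98, SE 0.87, limma adjusted p = 0.0449). In all 3 the diets did not overlap, though the 2 fructose libraries of Adamts4 lay far apart. Adamts2, which removes the amino-terminal propeptide of fibrillar procollagens, had 210.0 and 194 against 89.7, 78.1 and 46.6 (1.54, SE 0.26, limma adjusted p = 0.00355). Adamts12 had 33.5 and 24.0 against 0.954, 1.03 and 6.66 (3.24, SE 0.85, limma adjusted p = 0.0283). Adamts6 had 51.0 and 43.4 against 15.3, 7.19 and 5.33 (2.35, SE 0.61, limma adjusted p = 0.0276). These genes too were separated between the diets in every library. In the same livers the summed markers of stellate cells and fibroblasts were 7497 to 8417 with fructose and 4448 to 5277 with cornstarch. Of these, 11 of 12 reached a value of 10 in both. Those of macrophages were 20179 to 23346 and 7896 to 13857 (10 of 10 at that value), and those of endothelium 7272 to 8256 and 3505 to 5782 (8 of 8). Those of red cell precursors were 5537 to 7212 and 1234 to 2960 (5 and 3 of the 5 found in the data). None of these 4 sums overlapped between the diets, but single markers did. Dcn weighed most in the stellate sum (5042 and 4414 against 2884, 2857 and 2261). Pdgfrb, Pdgfra, Reln, Hgf and Lum were also higher in every fructose library. Thy1 was lower in both, and Des, Lrat, Acta2, Tagln and Gli1 overlapped. Kdr, Tek and Clec4g overlapped in the endothelial list, and Timd4 in the macrophage list. Hba-a1 made up most of the red cell sum with fructose (5315 and 3931), while Alas2 and Klf1 were not higher in every fructose library. The part of these cells in the changes of ADAMTS proteases, Loxl2, Mmp14, Mmp15 and Mmp27 was not tested.

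Across the members tested, all fructose livers exceeded all cornstarch livers of 5 months in 20 of 39 (51.3%, against 27.1% of all genes) and lay below them in 1, Mmp15 (2.56%, against 24.7%). Among the 20 are Mmp8, Mmp25, Adamts4 and Adamts12, which entered the fit through the side where they are high. Mmp8, Mmp9, Mmp25, Loxl2, Adamts2 and Adamts15 kept their calls in every alternative in which they were tested. Without fructose replicate 2, Mmp25 was no longer tested. The calls of Mmp14, Mmp15, Mmp27, Adamts4, Adamts6, Adamts9 and Adamts12 were lost, at log2 differences of 0.954, -0.915, 1.79, 1.74, 2.46, 1.77 and 3.47. Without fructose replicate 1 the calls of Mmp14, Mmp15, Mmp27, Adamts6 and Adamts12 were lost. Without the 2 XX libraries those of Mmp14, Mmp27, Adamts4, Adamts6 and Adamts12 were lost. These settings leave 1 fructose library, and fewer of all genes passed in them too. 8 members passed without cornstarch replicate 2 (20.5%, against 8.31% of all genes). The count was 9 without cornstarch replicate 3 (23.1%, against 8.84%) and 11 without cornstarch replicate 1 (28.2%, against 14.3%).

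At 9 months the diets differed in fewer members, and the cross-linkers and an inhibitor were among them. 6 of the 39 members passed, all higher with fructose: Lox, Loxl2, Timp2, Mmp12, Mmp27 and Adamts15. This is 15.4%, against a background of 2.54% of all genes (2.32% higher and 0.217% lower). The median log2 difference of the members was 0.72, against -0.02 for all genes, and 35 of 39 were above 0. Adamts15, Loxl2 and Mmp27 passed at both ages.

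Lox, the founding member of the lysyl oxidases, had 57.2, 17.9 and 13.1 normalised counts in the fructose livers of 9 months and 0.964, 1.54 and 1.19 in the cornstarch livers. The groups were far apart, with 1 fructose library above the other two together. The recovered reads were 100 against 3, a ratio of 20.7 (95% counting interval 6.90 to 102), with a limma adjusted p of 0.0248. Lox passed the level filter of the liver fit through this group alone, so it had to differ. Loxl2 had 118, 112 and 79.8 against 25.1, 33.8 and 28.6, without overlap, a log2 difference of 1.78 (SE 0.24, limma adjusted p = 0.0243), or 3.43-fold.

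Timp2 (ENSMUSG00000017466, chromosome 11, 118301069 to 118355740) had 284, 429 and 252 normalised counts with fructose and 164, 146 and 123 with cornstarch, higher in every library, by 1.12 on the log2 scale (SE 0.21, limma adjusted p = 0.0299), or 2.18-fold. Timp3 (1228, 1607 and 652 against 722, 463 and 539.6) overlapped in 1 fructose library and did not pass (0.94, SE 0.31, limma adjusted p = 0.134). Timp1 had 25.0, 8.96 and 9.06 against 1.93, 6.15 and 5.96 (1.39, SE 0.79, limma adjusted p = 0.353). The fructose values of Timp1 were the higher ones in every library, at a level like that of the overlapping Syn1 (median 10.5).

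Mmp12, the elastase of macrophages, had 215, 72.8 and 153 normalised counts with fructose and 24.1, 46.1 and 42.9 with cornstarch, without overlap (1.85 on the log2 scale, SE 0.41, limma adjusted p = 0.0443). Mmp27 had 63.5, 53.8 and 48.9 against 13.5, 24.6 and 11.9 (1.73, SE 0.35, limma adjusted p = 0.0342). Adamts15 had 20.8, 33.6 and 36.7 against 9.64, 6.15 and 5.96 (1.92, SE 0.35, limma adjusted p = 0.029). All 3 were separated between the diets. The summed macrophage and Kupffer cell markers were 16034 to 23091 in the fructose livers of 9 months against 3379 to 9226 in the cornstarch livers. All 10 markers were at a value of 10 in both groups, and Marco overlapped between the diets. Those of stellate cells and fibroblasts were 5306 to 6265 against 3451 to 4680, with 11 of 12 at that value in both. Dcn weighed most in them, and Pdgfrb, Pdgfra, Acta2, Tagln and Lum were also higher in every fructose library. Des, Lrat, Reln, Hgf, Gli1 and Thy1 overlapped. The part of these cells in the results was not tested.

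The other members gave no call at 9 months. Mmp14 had 802, 868 and 1185 normalised counts with fructose and 403, 690.0 and 462 with cornstarch, without overlap (0.89 on the log2 scale, SE 0.26, limma adjusted p = 0.1). Mmp2 had 19.8, 62.7 and 52.1 against 25.1, 33.8 and 17.9, which overlap (0.68, SE 0.41, limma adjusted p = 0.383). Mmp7, matrilysin, had 55 reads with fructose and 1 with cornstarch, a ratio of 34.2 (95% counting interval 5.89 to 1376), without passing the test. All fructose livers exceeded all cornstarch livers in 19 of the 39 members (48.7%, against 12.9% of all genes) and lay below them in 1, Mmp25 (2.56%, against 10.7%). Among the 19, Adamts4, Adamts12, Lox, Mmp7, Mmp13 and Timp1 reached a value of 10 in fructose livers alone, so they entered the fit through the side where they are high.

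**Figure D3:**
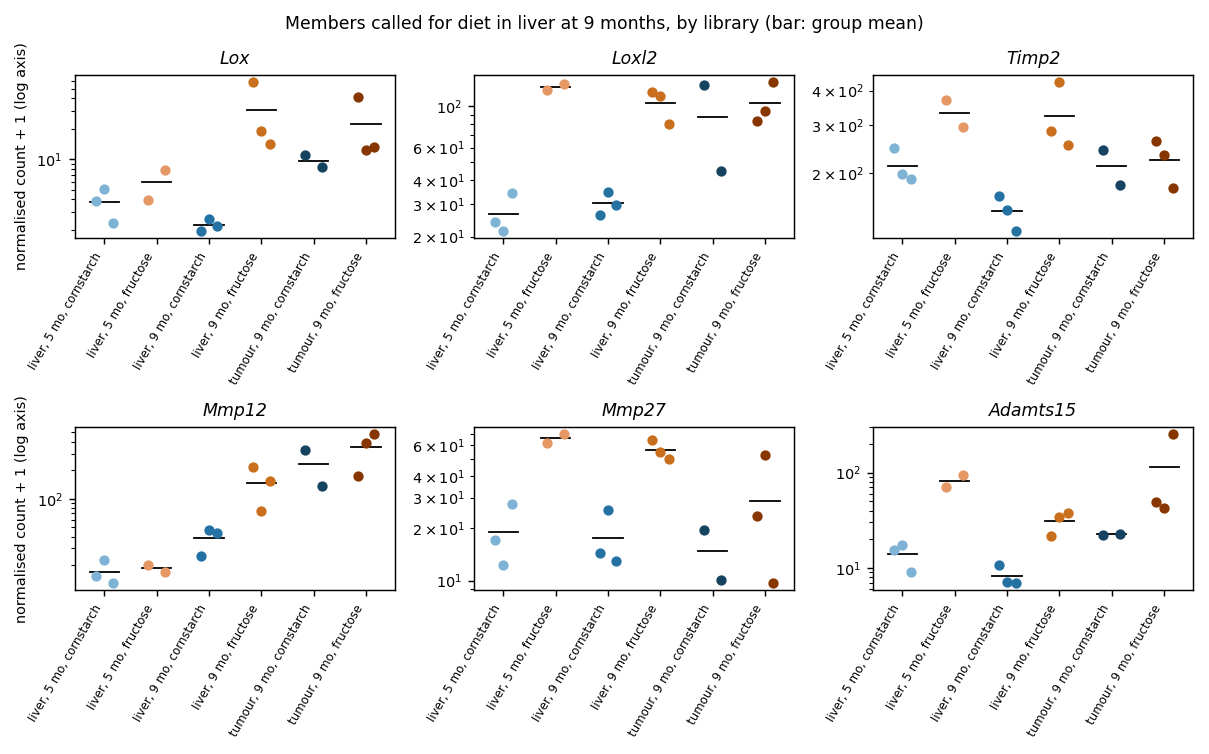
Lox, Loxl2, Timp2, Mmp12, Mmp27 and Adamts15 in each library (points; normalised count) by group, with bars at the group means. At 9 months the 3 fructose livers lie above the 3 cornstarch livers in each panel, and Mmp12 is higher at 9 than at 5 months.

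None of the 6 calls at 9 months held in every alternative. 0 members passed limma when fructose replicate 1, 2 or 3 or cornstarch replicate 3 was left out (19, 14, 18 and 20 members had an unadjusted p under 0.05) or when the 2 groups were fitted alone (18). In these settings 1, 5, 0, 11 and 0 of all genes passed. Over all settings the members' limma adjusted p reached 0.0857 for Lox and Loxl2, 0.0953 for Adamts15, 0.0946 for Timp2, 0.122 for Mmp27 and 0.147 for Mmp12. 5 passed without cornstarch replicate 1 or 2 (3.14% and 2.5% of all genes). Without the 2 XX libraries of 5 months fewer members and fewer of all genes passed. DESeq2 on the recovered reads called 12 (30.8%, against 6.71% of all genes).

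Averaged over both ages, 20 of the 39 members passed, 19 higher and Mmp15 lower (51.3%, against 21.4% of all genes, 13.8% higher and 7.61% lower). The median log2 difference was 0.94, against -0.01. 6 of the 20 (Lox, Mmp7, Mmp8, Mmp25, Adamts4, Adamts12) reached a value of 10 in fructose livers alone and had to differ, which leaves 14 calls of 31 members without that limit. Those kept in every alternative were Mmp8, Mmp9, Mmp14, Mmp27, Timp2, Loxl2, Adamts2, Adamts4, Adamts12 and Adamts15, of which Mmp8, Adamts4 and Adamts12 carry this limit. Loxl2 had the smallest adjusted p (2.03 on the log2 scale, SE 0.18, limma adjusted p = 0.000174). Timp2 was higher by 0.89 (SE 0.16, limma adjusted p = 0.00388), Mmp14 by 0.94 (SE 0.20, limma adjusted p = 0.00782) and Lox by 2.06 (SE 0.45, limma adjusted p = 0.00962).

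4 further members passed in this average and at neither age alone: Adamts1 (0.72, SE 0.19, limma adjusted p = 0.023), a proteoglycan-cutting protease, Mmp7 (2.23, SE 0.62, limma adjusted p = 0.0274), Loxl1 (1.21, SE 0.36, limma adjusted p = 0.036), an oxidase needed for elastic fibres, and Adamtsl4 (0.94, SE 0.27, limma adjusted p = 0.0322), which binds fibrillin. Timp1 (1.36, SE 0.59, limma adjusted p = 0.125), Timp3 (0.61, SE 0.23, limma adjusted p = 0.0876) and Mmp2 (0.91, SE 0.31, limma adjusted p = 0.0574) stayed above the threshold. Without fructose replicate 2 of 5 months, which leaves 1 fructose library of that age, fewer members and fewer of all genes passed. The calls of Lox, Adamts1, Adamts6, Adamts9, Adamtsl4, Loxl1, Mmp7, Mmp12 and Mmp15 were lost (log2 differences 1.81, 0.474, 1.55, 1.23, 0.968, 1.22, 1.65, 1.06 and -0.637).

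Between 5 and 9 months, averaged over the diets, 4 of the 39 members passed (10.3%, against 2.77% of all genes, 0.768% higher and 2% lower). Mmp12 rose by 2.02 on the log2 scale (SE 0.31, limma adjusted p = 0.0143), or 4.07-fold. At 5 months it had stood at 19.0 and 16.0 normalised counts with fructose and at 14.3, 21.6 and 12.0 with cornstarch, below all 6 livers of 9 months. Mmp8 fell by 3.61 (SE 0.68, limma adjusted p = 0.0247), Mmp9 by 1.99 (SE 0.35, limma adjusted p = 0.0209) and Mmp25 by 2.47 (SE 0.44, limma adjusted p = 0.0209). These falls lay in the fructose livers. With cornstarch the means at 5 and 9 months were 2.67 and 1.63 for Mmp8, 14.4 and 15.3 for Mmp9, and 0.444 and 1.74 for Mmp25. Mmp8 and Mmp25 reached a value of 10 in fructose livers alone, which leaves 2 calls of 31 members without that limit. Of the fixed genes none passed, with log2 differences of 1.23 for Timp1, -0.31 for Timp2, -0.30 for Timp3, -0.33 for Mmp2, -0.39 for Mmp14, 0.74 for Lox and -0.05 for Loxl2.

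The 3 granulocyte MMPs also accounted for the members whose diet effect differed between ages. Their difference of differences (diet effect at 9 months minus that at 5 months) was -7.16 for Mmp8 (SE 1.37, limma adjusted p = 0.0487), -3.70 for Mmp9 (SE 0.70, limma adjusted p = 0.0484) and -6.87 for Mmp25 (SE 0.87, limma adjusted p = 0.0121). These are 3 of 39 members (7.69%), against 0.698% of all genes (0.00698% higher and 0.691% lower), but Mmp8 and Mmp25 entered the fit through the fructose livers alone, so Mmp9 is the 1 call without that limit. The Mmp9 call was itself lost in 15 of 21 alternatives, and the Mmp8 call in 16. Mmp9 had a limma adjusted p of 0.0683 with a pseudocount of 0.5, 0.0514 with no filter, 0.0724 with a filter of 50 and 0.0508 with TMM scaling. At 9 months Mmp8 had 0, 5.6 and 10.4 normalised counts with fructose and 0.964, 1.54 and 2.38 with cornstarch, which overlap. Mmp9 had 29.1, 44.8 and 44.0 against 24.1, 16.9 and 4.76, the fructose values being the higher ones. Mmp25 had 0, 0 and 0.453 against 0.964, 3.07 and 1.19, the fructose values being the lower ones at a level of 5 reads in all. The 10 granulocyte markers summed to 203 to 334 in the fructose livers of 9 months and to 53.6 to 87.6 in the cornstarch livers. The difference for Lox was 2.86 (SE 0.90), with a limma adjusted p of 0.232, and for Timp1 0.05, Timp2 0.48, Timp3 0.66, Mmp2 -0.46, Mmp14 -0.09 and Loxl2 -0.50, none of which passed.

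The calls for age depended on single libraries while the differences stayed about as large. For age, fewer members passed without fructose replicate 1 or 2 of 5 months or without the 2 XX libraries. These settings leave 1 fructose library of that age, and fewer of all genes passed in them too. 6 members passed without cornstarch replicate 3 of 5 months (15.4%, against 2.19% of all genes). Without fructose replicate 2 the log2 difference was 1.97 for Mmp12 (limma adjusted p = 0.0656), -3.5 for Mmp8 (limma adjusted p = 0.108) and -2.05 for Mmp9 (limma adjusted p = 0.0849). For the difference of the diet effects, limma called fewer members and fewer of all genes with any 1 library left out. The fewest members passed without fructose replicate 1 or 2 of 5 months. Mmp8 had an adjusted p of 0.288 with edgeR and 0.0707 with DESeq2.

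Tumours were compared with the liver of the same age, averaged over the diets. 11 of the 40 members tested passed and all were higher in tumours: the MMPs Mmp12, Mmp13, Mmp14, Mmp15 and Mmp24, the cross-linker Loxl4, the proteases Adamts10, Adamts14 and Adamts15 and the ADAMTS-like genes Adamtsl4 and Adamtsl5. This is 27.5%, against 23.8% of all 14503 genes tested (13.4% higher and 10.5% lower), so the share of called members in either direction was near the background. No member was called lower in this fit, but some were in alternatives. Quantile normalisation gave 10 higher and 2 lower, and 1 fit of all libraries 11 and 1. Without fructose tumour replicate 1 the counts were 10 and 2, and without cornstarch liver replicate 3 they were 9 and 1. A lower call also arose without cornstarch tumour replicate 1. The median log2 difference of the members was 0.33, against -0.01, and 26 of 40 were above 0. No TIMP passed.

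Mmp24 (MT5-MMP; ENSMUSG00000027612, chromosome 2, 155775342 to 155818366), a membrane-anchored MMP known from neurons, had 24.3, 32.4 and 139 normalised counts in the fructose tumours and 39.5 and 201 in the cornstarch tumours. In the 11 livers it did not exceed 7.7. It reached a value of 10 in tumours alone, so it entered the fit through the side where it is high and had to differ. The log2 difference was 4.47 (SE 0.65, limma adjusted p = 0.00123), or 22.1-fold. The gene overlaps BC029722, whose median over libraries was 286, and counts that ignore strand could not tell them apart.

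Adamts14 (ENSMUSG00000059901, chromosome 10, 61197112 to 61273438), which like Adamts2 removes the amino-terminal propeptide of procollagen, had 770.3, 476 and 144 normalised counts in the fructose tumours and 299 and 272 in the cornstarch tumours. The livers of 9 months held 40.6, 22.4 and 49.9 (fructose) and 23.1, 24.6 and 51.2 (cornstarch), below every tumour. The difference was 3.26 on the log2 scale (SE 0.42, limma adjusted p = 0.000665), or 9.61-fold. Adamts2, its relative, had 122, 80.1 and 105 in the fructose tumours and 143 and 82.0 in the cornstarch tumours, against 52.2 to 122 in the 6 livers, and did not pass. The 12 markers of stellate cells and fibroblasts summed to 4606 to 10556 in the fructose tumours and 6803 to 8159 in the cornstarch tumours. The livers held 5306 to 6265 and 3451 to 4680, with 11 of 12 at a value of 10 in each group and Gli1 at 0 in the fructose tumours. Reln weighed most in the tumour sums, with 1743 to 7431 in tumours against 562 to 1429 in livers of 9 months. Dcn, the largest marker in these livers, went the other way (532 to 2268 against 1946 to 3277), and the other markers moved in both directions. The sums therefore do not describe the list as a whole, and the part of these cells in the results was not tested.

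Mmp15, which had been lower with fructose at 5 months, had 1024, 940.1 and 1344 normalised counts in the fructose tumours and 1176 and 967 in the cornstarch tumours. Livers of 9 months held 664, 505 and 509 with fructose and 813, 638 and 694 with cornstarch, and all tumours exceeded all livers (0.78 on the log2 scale, SE 0.14, limma adjusted p = 0.00315). Mmp14 had 1573, 1264 and 1283 in the fructose tumours and 960.0 and 765 in the cornstarch tumours. Within each diet the tumours were above the livers (0.65, SE 0.17, limma adjusted p = 0.0187). Mmp12 had 171, 391 and 478 in the fructose tumours and 329 and 136 in the cornstarch tumours, the lowest fructose tumour lying below the highest fructose liver (215). Its difference was 1.87 (SE 0.38, limma adjusted p = 0.00655). The 10 macrophage and Kupffer cell markers summed to 4831 to 13352 in the fructose tumours and to 4497 to 4952 in the cornstarch tumours. The livers of those diets held 16034 to 23091 and 3379 to 9226, with all 10 at a value of 10 in each of the 4 groups. Under fructose Clec4f (240 to 654 against 2678 to 4148), Timd4, Vsig4 and Csf1r lay below all livers. Cd68, Adgre1, C1qa, C1qb, Marco and Cd5l overlapped, so the sum does not describe the list as a whole. The part of these cells in the Mmp12 difference was not tested.

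Mmp13, a collagenase of the chromosome 9 cluster, ranged from 11.3 to 202 normalised counts in tumours and from 3.57 to 24.0 in livers of 9 months (2.50 on the log2 scale, SE 0.65, limma adjusted p = 0.0193). Adamtsl5 ranged from 31.3 to 347 in tumours and from 7.71 to 57.2 in livers (2.76, SE 0.62, limma adjusted p = 0.0103). Loxl4 ranged from 40.9 to 323 against 10.1 to 93.4 (2.11, SE 0.64, limma adjusted p = 0.0359). The ranges overlapped over both diets, but within each diet all tumours exceeded all livers for Adamtsl5, and under cornstarch they did so for Mmp13 and Loxl4 too. Adamts10, which binds fibrillin microfibrils, was higher by 1.03 (SE 0.27, limma adjusted p = 0.0194).

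Adamtsl4 had 169, 115 and 204 normalised counts in the fructose tumours and 115 and 88.4 in the cornstarch tumours, against 108, 98.5 and 55.7 and 51.1, 32.3 and 75.0 in the livers of the same diets (0.95 on the log2 scale, SE 0.27, limma adjusted p = 0.0273). Adamts15 had 47.8, 42.1 and 252 in the fructose tumours and 21.0 and 21.9 in the cornstarch tumours, and within each diet all tumours exceeded all livers (1.44, SE 0.44, limma adjusted p = 0.0388). The cornstarch tumours of Adamts15 lay within the range of the fructose livers.

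**Figure D4:**
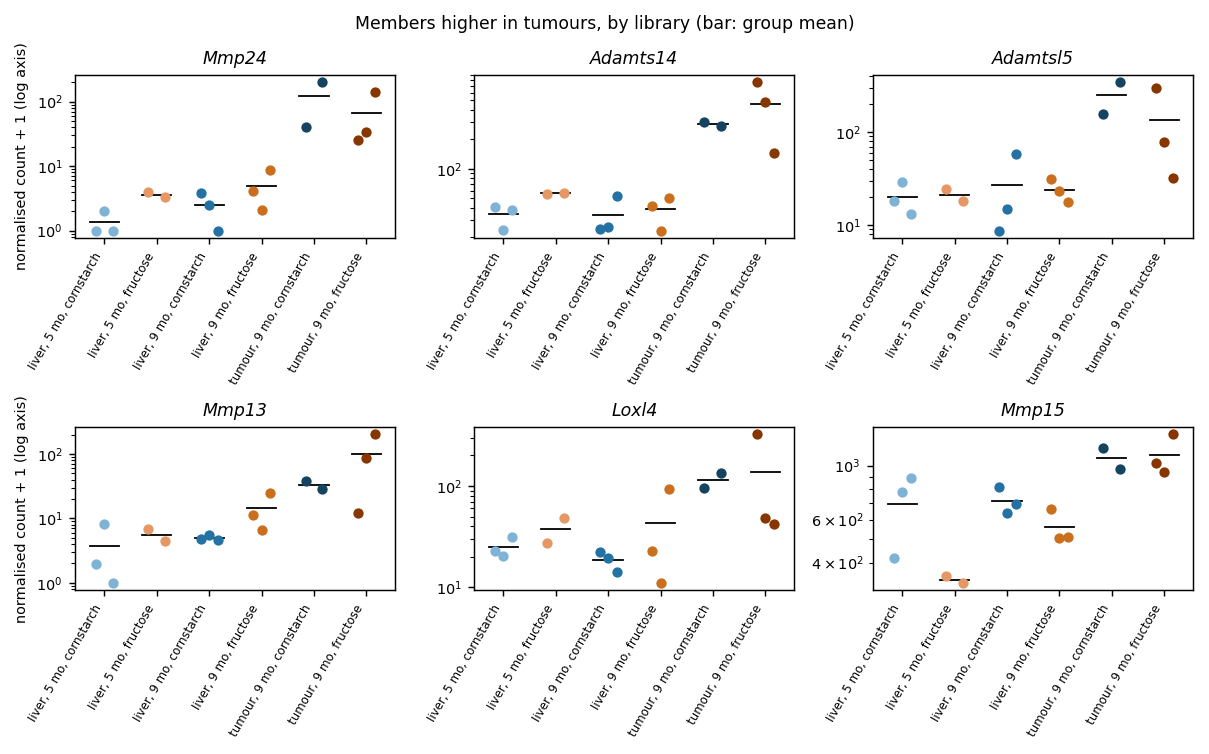
Mmp24, Adamts14, Adamtsl5, Mmp13, Loxl4 and Mmp15 in each library (points; normalised count) by group, with bars at the group means. Mmp24, Adamts14 and Mmp15 separate all 5 tumours from the 6 livers of 9 months, Adamtsl5 separates them within each diet, and Mmp13 and Loxl4 under cornstarch.

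Of the fixed genes that did not pass, Timp1 had 41.7, 16.2 and 16.5 normalised counts in the fructose tumours and 19.4 and 10.9 in the cornstarch tumours (1.17 on the log2 scale against liver, SE 0.43, limma adjusted p = 0.0736). Timp2 had 262, 231 and 176 and 242 and 180.4 (0.02, SE 0.18, limma adjusted p = 0.955), and Timp3 had 1449, 1379 and 928 and 825 and 716 (0.31, SE 0.23, limma adjusted p = 0.371). Lox had 40.0, 11.3 and 12.2 and 10.1 and 7.29 (0.85, SE 0.47, limma adjusted p = 0.211). Loxl2 had 82.6, 93.8 and 134 and 129.6 and 43.7 (0.67, SE 0.28, limma adjusted p = 0.102). Mmp2 had 45.2, 27.5 and 22.6 and 36.2 and 21.9 (-0.11, SE 0.35, limma adjusted p = 0.851). All of these overlapped the livers of at least 1 diet.

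Mmp12, Mmp15, Mmp24 and Adamts14 kept their calls in every alternative. 7 members passed without cornstarch tumour replicate 1 and 6 without cornstarch tumour replicate 2: without the latter, Adamts10, Adamts15, Adamtsl4, Adamtsl5, Loxl4 and Mmp13 had limma adjusted p of 0.0879, 0.125, 0.0695, 0.0616, 0.134 and 0.0657, and without the former Mmp14 had 0.068, Mmp13 0.0574, Adamtsl4 0.0882, Adamts15 0.0848 and Loxl4 0.0674.

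Within the fructose diet, 3 of 40 members passed between tumour and liver (7.5%, against 10.2% of all genes, 5.75% higher and 4.46% lower), all higher: Adamts14 (3.36 on the log2 scale, SE 0.56, limma adjusted p = 0.00596), Mmp15 (0.97, SE 0.18, limma adjusted p = 0.00994) and Mmp24 (3.54, SE 0.86, limma adjusted p = 0.0294). Within the cornstarch diet, 3 of 40 passed (7.5%, against 5.71%, 4.82% higher and 0.889% lower): Mmp24 (5.40, SE 0.97, limma adjusted p = 0.0126), Adamts14 (3.17, SE 0.62, limma adjusted p = 0.0179) and Mmp12 (2.51, SE 0.57, limma adjusted p = 0.0324). Both shares are near the background. Mmp24 entered the fit through tumours alone, which leaves 2 calls of 36 members in each diet. In the cornstarch diet all tumours exceeded all livers in 18 of the 40 members (45.0%, against 21.8% of all genes), and in the fructose diet in 7 (17.5%, against 17.2%), with Adamts13, Mmp7, Mmp9, Mmp17 and Mmp19 below all livers (12.5%, against 16.8%). Under cornstarch Mmp19 was again below all livers, as the 1 such member (2.5%, against 18.7%). Adamts13 is the protease that cuts von Willebrand factor.

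The tumour comparisons and the diet comparison at 9 months share the same livers, in which Lox was high with fructose and near the floor with cornstarch. Against liver, Lox was -0.41 on the log2 scale in the fructose tumours (SE 0.62, limma adjusted p = 0.719), and in the cornstarch tumours 20 reads stood against 3 in the livers, a ratio of 7.37 (95% counting interval 2.19 to 38.7, limma adjusted p = 0.1). Loxl2 was -0.01 under fructose (SE 0.37) and 1.35 under cornstarch (SE 0.41, limma adjusted p = 0.0809). Timp2 was -0.51 under fructose (SE 0.24) and 0.54 under cornstarch (SE 0.27). The difference of the diet effect between tumour and liver was -2.52 for Lox (SE 0.93), -1.36 for Loxl2 (SE 0.55) and -1.05 for Timp2 (SE 0.36), and each had a limma adjusted p of 1. With limma 0 of 40 members and 0% of all genes passed that test. 6 members had an unadjusted p under 0.05 (Lox, Loxl2, Timp2, Adamts2, Adamtsl2, Mmp7), and edgeR and DESeq2 also called 0 members. The Mmp24 call under fructose was lost without fructose liver replicate 1 or 2 or fructose tumour replicate 3 (limma adjusted p 0.0804, 0.106 and 0.0689), and 7 members passed without fructose tumour replicate 1, 4 higher and 3 lower (17.9%, against 7.43% of all genes). Under cornstarch 1 member passed without liver replicate 1 or 2 or tumour replicate 1 or 2, and the Mmp24 difference was 4.24 (limma adjusted p = 0.178) without tumour replicate 2.

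**Figure D5:**
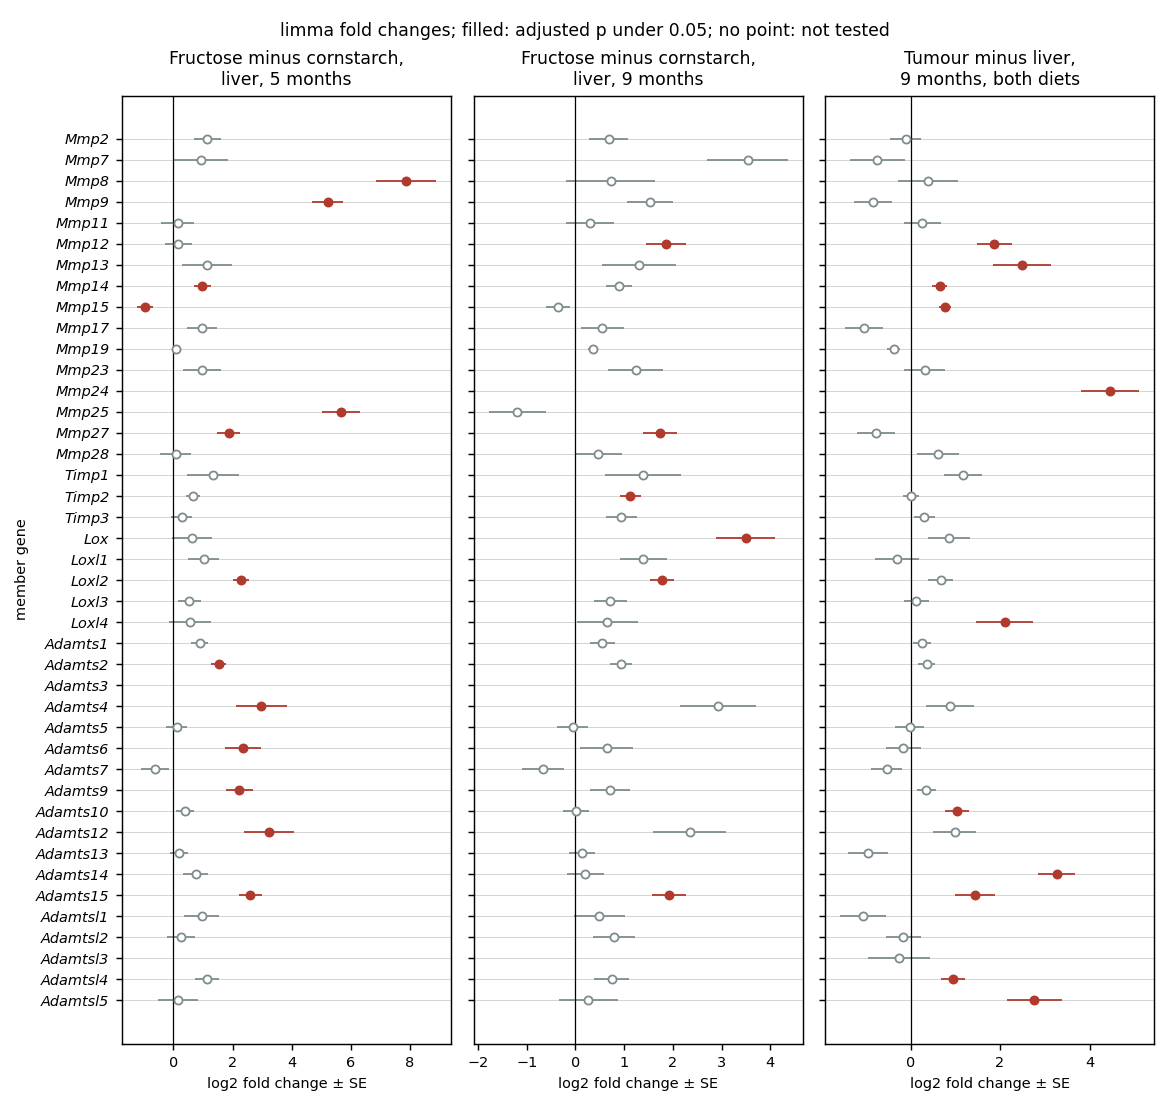
Log2 difference (± SE, from limma) of each member for the fructose diet minus cornstarch in liver at 5 months, the same at 9 months, and tumour minus liver at 9 months. Filled points have an adjusted p under 0.05, members without a point were not tested, and the horizontal scales differ: at 5 months Mmp8, Mmp25 and Mmp9 lie farthest to the right (7.88, 5.67 and 5.22), and in tumours Mmp24 and Adamts14 (4.47 and 3.26).

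Between the diets within tumours, no member passed (0 of 40 with limma, against 0% of all genes), 2 members had an unadjusted p under 0.05 (Adamts15 and Mmp14) and edgeR and DESeq2 called 0 members. Mmp14 was 0.67 higher with fructose on the log2 scale (SE 0.25, limma adjusted p = 0.531), its 3 fructose values lying above both cornstarch values. Timp3 was 0.68 higher (SE 0.35), Lox 0.97 (SE 0.69), Timp1 0.59 (SE 0.64), Loxl2 0.42 (SE 0.41), Mmp2 0.11 (SE 0.52) and Timp2 0.07 (SE 0.27), with limma adjusted p of 0.65 to 0.972. All fructose tumours exceeded both cornstarch tumours in Adamts6, Adamts12, Adamts15, Lox, Mmp8, Mmp14 and Timp3 (17.5% of the members, against 10.9% of all genes) and lay below them in Mmp17 (2.5%, against 12.5%).

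The proteins on which these enzymes act were taken from a list of 30 matrix proteins, 28 of them tested. This list and the next were drawn up with earlier results of these data known, so their shares beside all genes are descriptive. Whether a listed gene reached a value of 10 on 1 side alone was not examined. With fructose 19 rose and 0 fell at 5 months (median log2 difference 1.16, against -0.01 for all genes), which is 67.9% of the list against 10.3% of all genes called higher, among them the proteoglycan versican (Vcan, 6.69), collagen type IV (Col4a1, 2.26) and the fibrillar collagens Col1a1 (2.27) and Col3a1 (2.16). At 9 months 13 rose (46.4%, against 2.32%) and 0 fell (median 1.01), including Col1a1 (2.55), Col1a2 (1.96) and fibrillin 1 (Fbn1, 1.53). In tumours against liver 9 rose (32.1%, against 13.4%), among them Col4a2 (1.39), Tnc (1.41) and Col1a1 (1.44), and 2 fell (7.14%, against 10.5%), Dcn (-0.87) and Vwf (-0.92), with a median of 0.36. Between the diets within tumours 0 passed with limma.

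A second list held 49 partners of these enzymes: proteases of the plasmin system, ADAMs, meprins, collagen-processing enzymes and other inhibitors. Of the 44 tested, 16 rose (36.4%, against 10.3%) and 1 fell (2.27%, against 4.48%) with fructose at 5 months (median 0.77), among them the broad protease inhibitor A2m (9.88), the leukocyte protease Adam8 (3.61) and the urokinase receptor Plaur (2.68), while Dpp4 fell (-0.58). At 9 months 1 passed (2.27%, against 2.32% of genes called higher), the transglutaminase Tgm2 (0.85, SE 0.16, limma adjusted p = 0.03), which cross-links matrix proteins by another chemistry than the lysyl oxidases. In tumours 12 rose (27.3%, against 13.4%) and 6 fell (13.6%, against 10.5%; median 0.34): the meprins Mep1a (4.94) and Mep1b (4.51), the membrane protease St14 (4.48) and the tissue plasminogen activator Plat (4.00) were higher, and Serpine2 (-2.37), Pcolce2 (-1.55) and the MMP inhibitor Reck (-1.57) lower.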

How the data were processed

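mRNA from liver and tumour tissue was isolated with NucleoSpin and sequenced after a TruSeq mRNA preparation, per the labels' protocols. The authors deposited 1 table of normalised counts per gene (a signal scaled by 1 factor per library). Per the submitters' processing notes, the build was GRCm38 and the tools included STAR, RSEM, DESeq2, Trim Galore and FastQC, without versions or roles. No source used here gives the strandedness, and counts that ignore strand could not separate a member from a gene it overlaps. Some results are not reported here. The deposited signal gave whole reads within 0.01 for 100% of values above 0. GENCODE M21 supplied coordinates (98.9% of IDs matched), RefSeq the promoters.

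limma 3.58.1 (R 4.3.3; group means, variance trend) was applied to log2(value + 1), with 11 liver libraries for diet and age and 11 libraries of 9 months for tumours. Genes at 10 or more in 2 libraries of a fit were tested and adjusted by Benjamini and Hochberg over all of them (threshold 0.05). Differences and folds refer to that scale, which understates changes of low genes. edgeR 4.0.16 and DESeq2 1.42.0 were run on the recovered reads as alternatives. Counting intervals cover counting error only.

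Members and lists were chosen with earlier results of these data known. Values per library are printed for members past the threshold in at least 2 comparisons and for Timp1, Timp2, Timp3, Mmp2, Mmp14, Lox and Loxl2. Replicates were numbered in accession order.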

Additional observations from a re-analysis of the deposited data

Results flagged for a closer look

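3 results were set apart because the effect of the fructose diet in liver differed between 5 and 9 months in a test of that difference. The diet effect at 9 months minus that at 5 months, on the log2 scale, was -7.16 for Mmp8, -3.7 for Mmp9 and -6.87 for Mmp25, and each had a limma adjusted p under 0.05. Mmp8 and Mmp25 entered the fit through the fructose livers alone, where they are high, so they had to differ. The Mmp9 call was lost in 15 of 21 alternatives and the Mmp8 call in 16. The 3 genes are MMPs of granulocytes. Summed markers of those cells were higher in the fructose livers of 5 months, as were those of monocytes, macrophages, endothelium, and stellate cells and fibroblasts. Sums of red cell precursors, megakaryocytes and platelets, B and plasma cells, and T and NK cells were higher there too. Single markers overlapped between the diets in several of these lists. The part of any of these cells in the 3 results was not tested.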

How the results depend on the processing

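Of 63 calls of members over the comparisons, 22 were kept in every alternative and 0 changed direction. No paired analysis was possible because the labels carry no replicate numbers. The alternatives were pseudocounts of 0.5 and 8, no filter and a filter of 50, quantile normalisation, TMM scaling, edgeR, DESeq2, 1 fit of all 16 libraries, the compared groups alone, leaving out the 2 XX libraries, and leaving out each library in turn. Where 1 library remained in a group, its spread was assumed equal to that of the other groups. Where not stated, the cause was not tested.

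Counts of called members that moved by over 1.5 times were as follows. Without the 2 XX libraries fewer members passed for diet at 5 and at 9 months, for age and for the difference of the diet effect between ages. That setting leaves 1 fructose library of 5 months, and fewer of all genes passed in each of these comparisons too. For diet at 9 months 12 passed with DESeq2 (6.71% of all genes), 3 in 1 fit of all libraries (2.08%) and 0 with the compared groups alone (0%). Over both ages 13 passed with a filter of 50 (22.6% of all genes), which tests fewer genes. For the difference between ages 1 passed with a pseudocount of 0.5 (0.279%), 0 with a filter of 50 (0.329%) and 1 with TMM (0.58%). For tumour against liver under fructose 5 passed with quantile normalisation (3 higher, 2 lower; 12.5% against 11.7% of all genes), 7 with DESeq2 (6 higher, 1 lower; 17.5% against 17.0%) and 6 in 1 fit of all libraries (4 higher, 2 lower; 14.3% against 15.1%), all near the background. Under cornstarch 9 passed with DESeq2 (22.5% against 11.7%), 6 in 1 fit (14.3% against 9.87%) and 5 with the groups alone (15.6% against 4.25%). With each library left out the counts ranged from 5 to 11 for diet at 5 months, 0 to 5 at 9 months, 10 to 20 over both ages, 0 to 6 for age, 0 to 2 for the difference between ages, 0 to 0 for diet in tumours, 6 to 12 for tumour against liver, 2 to 7 under fructose, 1 to 3 under cornstarch and 0 to 0 for the difference between tissues. Quantile normalisation moved the split of all genes called higher and lower at 5 months from 1478 and 641 to 1226 and 1071, over both ages from 1970 and 1089 to 1590 and 1687, and in tumours from 1937 and 1521 to 1862 and 1880.

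Signs turned in differences that passed no test. For the difference of the diet effect between ages Timp1 was -0.147 with a pseudocount of 0.5, -0.342 with edgeR, -0.393 with DESeq2 and -1.36 without the XX libraries. Against liver Timp2 was -0.0454 in tumours with quantile normalisation, Loxl2 was 0.00252 under fructose with DESeq2 and Mmp2 was -0.0935 under cornstarch with quantile normalisation. With each library left out, Loxl2 ranged from -0.119 to 0.049 for age, and between ages Mmp14 from -0.334 to 0.144, Mmp2 from -0.776 to 0.0322 and Timp1 from -1.19 to 0.642. For diet in tumours Loxl2 ranged from -0.352 to 1.19, Mmp2 from -0.241 to 0.46 and Timp2 from -0.139 to 0.285. For tumour against liver Mmp2 ranged from -0.355 to 0.0684 and Timp2 from -0.0883 to 0.131. Under fructose Lox ranged from -0.97 to 0.202, Loxl2 from -0.205 to 0.14 and Timp3 from -0.193 to 0.457, under cornstarch Mmp2 from -0.173 to 0.529, and Timp3 from -0.637 to 0.0136 for the difference between tissues. Depth limits genes of few reads, Timp1, Lox, Mmp7 and Mmp25 among them.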
